A study of Homo sapiens with 24 samples.

Results

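Treatment of KARPAS-422 cells with an EZH2 inhibitor for 6 days was compared with DMSO for the same time. KARPAS-422 was established from a human lymphoma of large B cells (DLBCL) of the germinal centre type, and its label gives the EZH2 genotype as Y641N, a change in the catalytic domain. Both groups carry that genotype. The comparison holds 6 of the 24 arrays of the study, 3 with the inhibitor at 5 uM and 3 with DMSO, the vehicle, and it takes in all 19775 genes that a probe set with a single gene symbol measured. The inhibitor is not named in the sources used here, and all arrays come from 1 cell line, so that the replicates, described as biological, are separate samples of the same line. The other 18 arrays cover both treatments at days 1, 2 and 3, with 3 arrays each, and served to estimate the spread of each gene and to ask whether the effect at day 6 differed from the earlier ones. Every level is an RMA value on the log2 scale, and every difference is inhibitor minus DMSO at day 6 on that scale with the standard error (SE) of the fit (3 arrays against 3), except where the text says otherwise.

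EZH2 is the enzyme of Polycomb repressive complex 2 (PRC2), which methylates histone H3 at lysine 27, a mark of silenced genes. In germinal centre B cells EZH2 is abundant and holds genes of exit from the germinal centre and cell cycle inhibitors in check, and changes at tyrosine 641 raise the trimethylated form of the mark. An inhibitor of the enzyme does not remove the mark, which is diluted as cells divide, so responses to such compounds are known to develop over days.

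B cell genes gave signal on the arrays. The mean log2 level over 48 B lineage and B cell receptor genes was 8.76 to 8.84 in the DMSO arrays and 9.19 to 9.27 in the inhibitor arrays. The B cell surface gene MS4A1 (CD20) had a mean of 12.70 in DMSO, the B lineage factor PAX5 11.93, and the receptor chains CD79B and CD79A 10.50 and 9.17. Among markers of other cells, the mean log2 level over 24 T and NK cell markers was 5.11 to 5.20 in the DMSO arrays and 4.94 to 5.03 in the inhibitor arrays, over 24 myeloid markers 4.36 to 4.47 and 4.80 to 4.81, and over 21 stromal, endothelial and epithelial markers 4.95 to 5.01 and 4.89 to 5.00. RMA values have no 0. Of the defining T cell markers, CD3E and CD2 stood at 4.83 and 3.68 in DMSO, but CD3D stood at 7.42. Of the 24 T and NK cell markers 5 had a DMSO mean above 6. The T cell receptor chain gene CD247 stood at 10.13 and the stromal proteoglycan gene DCN at 12.80, above MS4A1. The signals of different probe sets do not measure transcript amounts, so these levels are a limited check of the cell type. The myeloid markers that rose are given with the genes below; what part other cells had in any result was not tested.

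The inhibitor and DMSO arrays formed separate sets over all genes. Arrays of the same group correlated at 0.9956 to 0.9969 and arrays of different groups at 0.9702 to 0.9736 across genes. At an adjusted p under 0.05, limma called 8977 genes, 45.4% of those tested, of which 3653 (18.5%) were higher and 5324 (26.9%) were lower with the inhibitor. The words rose and fell are used for such calls. The 3 inhibitor arrays all lay above or all below the 3 DMSO arrays for 3491 of the higher and 4953 of the lower calls; over all genes, called or not, this was so for 19.8% in the higher and 32.3% in the lower direction. An exact permutation test of 3 arrays against 3 cannot give a p below 0.1, so the calls rest on the spread that limma shares across genes and groups.

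More genes fell than rose, but the rises were larger. The median difference was 0.65 among the genes that rose and -0.41 among those that fell. At least 2-fold rises were found for 1013 genes (5.12%) and falls of that size for 481 (2.43%), at least 4-fold rises for 257 genes against 11 falls, and 26 genes rose at least 16-fold. The median gene stood at -0.11, so that the count of falls depends on what is taken as no change. After shifting the data so that the median gene showed no change, 4505 genes were higher and 3141 lower, and the share of falls among the calls was 41.1% in place of 59.3%. Differences of the lists below are therefore to be read against a median of -0.11, and the counts of list members that rose or fell against 18.5% and 26.9% of all genes. A list whose shares lie near these holds no more calls than genes at large.

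How large a change could be seen depended on the signal. Genes were divided into 4 groups of equal size by their mean in the 9 DMSO arrays of days 1 to 3, which are not part of the comparison. The signal of a probe set also depends on its probes, so the groups sort probe sets and not transcript amounts. In the dimmest group 7.3% of genes rose and 11.3% fell, in the next 12.1% and 25%, then 30.1% and 28.6%, and in the brightest 24.4% and 42.8%. The at least 4-fold rises numbered 66, 75, 98 and 18 from the dimmest to the brightest group, whereas the at least 2-fold falls numbered 1, 13, 103 and 364. A gene near the floor of the array has little room to fall.

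**Figure D1:**
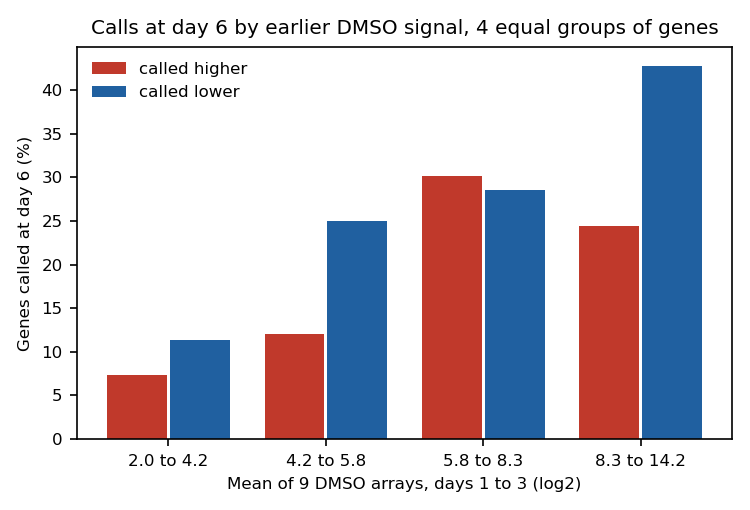
Bars give the percentage of genes in each of 4 equal groups by earlier DMSO signal (x axis, log2 range of the group) that were called higher (red) or lower (blue) at day 6 (y axis, %). Calls in both directions were fewest in the dimmest group, at 7.3% and 11.3%, and the share of lower genes was largest in the brightest, at 42.8%.

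Transcripts of the Polycomb machinery itself changed in both directions. EZH2 read 10.31, 10.18 and 10.13 in the DMSO arrays and 9.70, 9.55 and 9.45 with the inhibitor. All 3 inhibitor arrays lay below the DMSO arrays, and the transcript fell by 0.64 ± 0.12 (adjusted p = 8.9e-05), a 1.56-fold decrease; the inhibitor acts on the protein, so this level is no check of its action. Of the 6 core subunits, SUZ12, which the complex needs to be stable, fell by 0.35 ± 0.06 and the histone-binding subunit RBBP7 by 0.43 ± 0.06, while EED, the subunit that reads the mark, was at -0.12 ± 0.06 (adjusted p = 0.15) and RBBP4 at -0.18 ± 0.13 (adjusted p = 0.26). For EED a dimmer probe set went the other way, at 0.57, and averaging the probe sets of each gene left SUZ12 uncalled at -0.14 (adjusted p = 0.098). EZH1, the other methyltransferase that can occupy the complex, rose by 0.65 ± 0.12 as read from its brightest probe set, but another set fell, at -0.60, and the average over its 5 sets was 0.21 (adjusted p = 0.14).

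The accessory subunits, which guide PRC2 to its sites, ranged from -1.61 to 0.87. PHF19 read 10.10, 10.34 and 10.46 in DMSO and 8.68, 8.67 and 8.72 with the inhibitor, and fell by 1.61 ± 0.10 (adjusted p = 3.2e-11). The related PHF1 rose from 8.56, 8.59 and 8.72 to 9.22, 9.51 and 9.74. For this pair the groups were wide apart and moved in opposite directions. Of 8 accessory subunits 2 rose and 3 fell. Of 17 measured subunits of PRC1, the complex that binds the mark, 8 rose and 6 fell with a median of -0.01, or 0.096 after shifting the median gene to no change. CBX7 and CBX2 are alternative chromobox subunits that read the mark; CBX7 rose by 1.35 ± 0.11 and CBX2 fell by 0.85 ± 0.10. PHC1 and PHC3, which link PRC1 complexes to each other, rose by 0.83 ± 0.08 and 0.85 ± 0.10.

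Of 34 histone demethylases and methyltransferases outside PRC2, which erase and write chromatin marks, 11 rose (32.4%) and 9 fell (26.5%), against 18.5% and 26.9% of all genes. PRDM2, a member of a methyltransferase family, rose by 1.85 ± 0.10, although its dimmest probe set was called lower at -0.37. The H3 lysine 9 methyltransferase SUV39H2 fell by 1.39 ± 0.08, the H3 lysine 36 methyltransferase NSD2 by 1.32 ± 0.10 and the H3 lysine 79 methyltransferase DOT1L by 1.41 ± 0.15. Among 14 DNA methylation genes 5 rose and 5 fell. TET2, which oxidises methylcytosine, rose by 1.30 ± 0.10, and UHRF1, which recruits the maintenance methyltransferase to replicating DNA, fell by 1.68 ± 0.13.

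**Figure D2:**
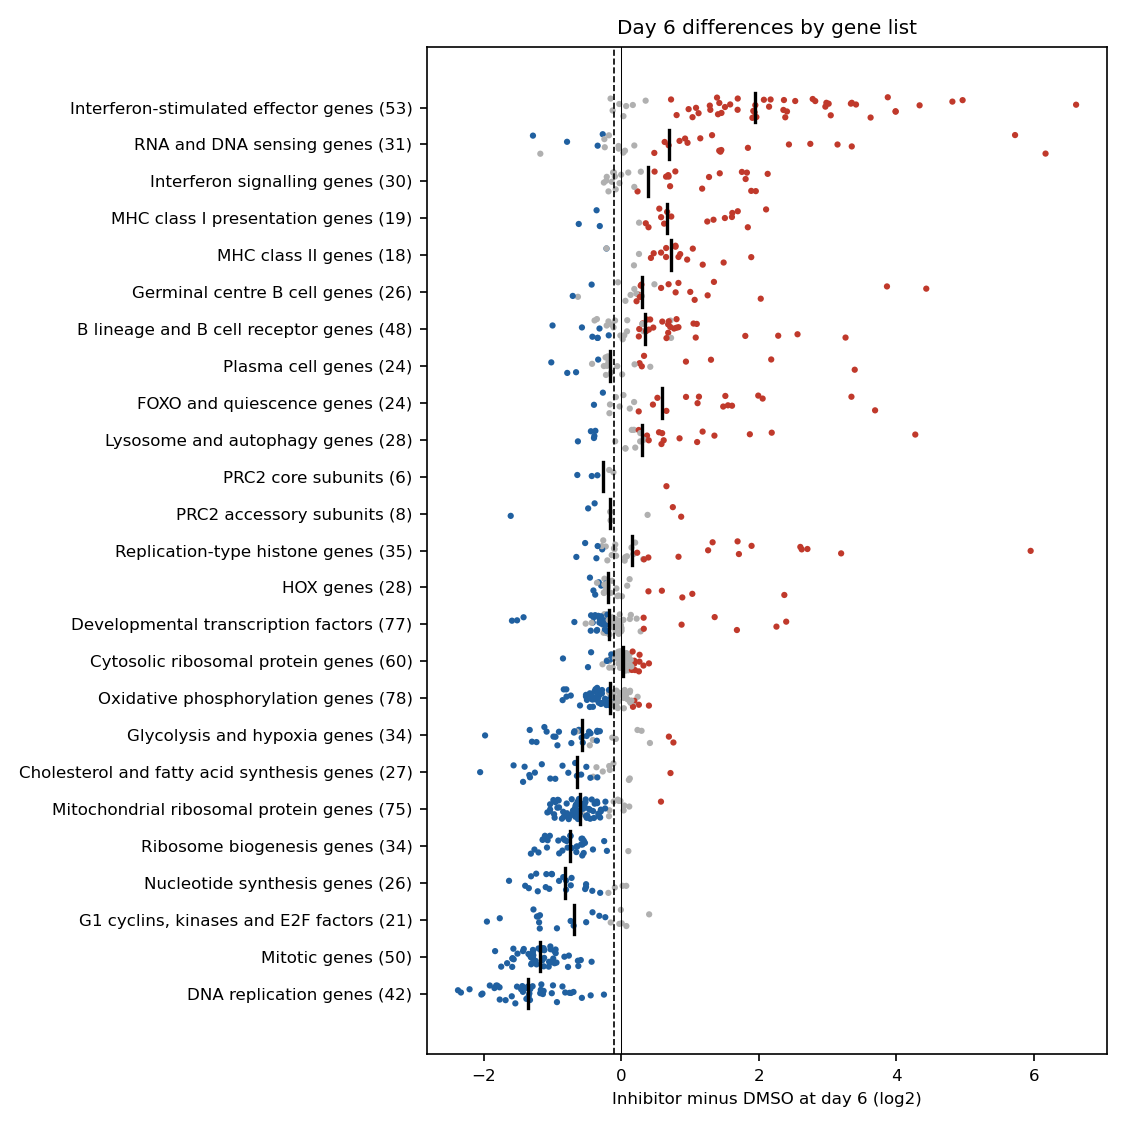
Each point is a measured member of a gene list (y axis, number of members in brackets), placed at its difference between inhibitor and DMSO at day 6 (x axis, log2); red and blue points were called higher and lower and grey points were not called. Black bars are list medians and the dashed line is the median of all genes at -0.11; the interferon-stimulated effector genes lie to the right with a median of 1.95 and the DNA replication genes to the left with -1.35.

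Of the gene lists examined, the interferon-stimulated effector genes had the highest median. Many of them block viral replication or translation. Of the 53 measured 46 rose, against 18.5% of all genes. None of the 53 fell, and the median difference was 1.95. The 7 members without a call were HERC5, GBP2, GBP4, GBP5, APOL6, CXCL10 and CXCL11, with differences from -0.16 to 0.35. IFI27, a mitochondrial protein induced by type I interferon, read 6.30, 6.70 and 7.53 in DMSO and 13.47, 13.46 and 13.46 with the inhibitor. Its rise of 6.61 ± 0.68 (adjusted p = 4.2e-08) is 97.9-fold, the largest of all genes, and its DMSO arrays spread more than its inhibitor arrays. RSAD2, which makes an antiviral nucleotide analogue, read 6.93, 6.78 and 7.31 in DMSO and 12.48, 11.89 and 11.53 with the inhibitor. IFIT2, which binds foreign RNA, rose 20.2-fold and the ubiquitin ligase RNF213 rose 28.1-fold. In 37 of the 53 genes inhibitor replicate 1 was the highest of the 3 inhibitor arrays, but the median difference from the DMSO mean was close in the 3, at 1.99, 1.95 and 1.85.

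Some of these genes lie side by side in the genome. Runs of 3 or more neighbouring measured genes that all rose at least 2-fold numbered 21, against 1 run of falls; these runs were looked for after the values were known. On chromosome 10 IFIT2, IFIT3, IFIT1 and IFIT5 rose by 4.34, 2.98, 2.78 and 2.97. The runs also hold IFITM2, IFITM1 and IFITM3 on chromosome 11, at 2.53, 1.69 and 1.91, and the synthetases OAS1, OAS3 and OAS2 on chromosome 12, at 1.41, 2.15 and 2.36. Such neighbours are also close in sequence, and probes of 1 family member can pick up another.

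The interferon-stimulated response element (ISRE) is the DNA sequence through which interferon signals switch on these genes, and the promoters with it of the effector and sensing genes that rose most, as far as they matched RefSeq, are shown because they carry the letters the list shares. Each window is the 250 bases before the annotated start in RefSeq on GRCh38.p14, written 5′ to 3′ along the gene, with matches to GAAA, any 2 bases and GAAA on either strand in capitals. IFI27 lies at chr14:94110486-94110735 (plus strand), IFIH1 at chr2:162318685-162318934 (minus strand), AIM2 at chr1:159076767-159077016 (minus strand) and RTP4 at chr3:187368135-187368384 (plus strand).
IFI27: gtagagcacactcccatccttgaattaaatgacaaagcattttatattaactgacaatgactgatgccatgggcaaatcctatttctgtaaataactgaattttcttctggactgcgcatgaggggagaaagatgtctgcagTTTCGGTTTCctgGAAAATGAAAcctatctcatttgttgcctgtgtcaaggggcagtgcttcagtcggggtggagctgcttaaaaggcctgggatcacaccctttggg
IFIH1: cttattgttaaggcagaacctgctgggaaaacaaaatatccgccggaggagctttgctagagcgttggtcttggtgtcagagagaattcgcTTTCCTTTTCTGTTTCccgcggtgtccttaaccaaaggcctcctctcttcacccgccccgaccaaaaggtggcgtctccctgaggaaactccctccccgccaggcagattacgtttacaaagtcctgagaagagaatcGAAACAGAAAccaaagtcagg
AIM2: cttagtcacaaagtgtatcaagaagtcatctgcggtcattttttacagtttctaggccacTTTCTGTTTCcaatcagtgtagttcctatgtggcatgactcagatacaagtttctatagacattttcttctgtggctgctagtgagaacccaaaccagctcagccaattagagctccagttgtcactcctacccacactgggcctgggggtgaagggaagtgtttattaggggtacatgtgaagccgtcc
RTP4: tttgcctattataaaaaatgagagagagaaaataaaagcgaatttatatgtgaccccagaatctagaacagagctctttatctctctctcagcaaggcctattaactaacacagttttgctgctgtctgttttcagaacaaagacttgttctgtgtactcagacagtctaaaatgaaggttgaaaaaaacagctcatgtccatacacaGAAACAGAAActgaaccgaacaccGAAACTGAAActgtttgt
RTP4, a chaperone of receptors at the cell surface, rose by 3.99 ± 0.26. Of the 53 effector genes 43 matched a promoter, and 23 of these (53.5%) hold the motif, against 3.07% of all 27305 promoters. It is in 4.27% of the promoters of all genes that rose and in 1.77% of those of genes that fell. In comparison, TTCNNNGAA, the core of the site used by interferon gamma signals, is in 18.6% of the effector promoters and 6.78% of all promoters. A match describes the letters and is not evidence that a factor binds there.

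Sensors of foreign nucleic acid were also higher. Of 31 RNA and DNA sensing genes 18 rose and 4 fell, with a median of 0.69. IFIH1 (MDA5), which detects long double-stranded RNA, read 3.53, 3.60 and 4.04 in DMSO and 10.08, 10.04 and 9.56 with the inhibitor, a 72.0-fold rise (6.17 ± 0.29, adjusted p = 4.5e-13). AIM2, which detects DNA in the cytosol, read 3.63, 4.24 and 3.85 in DMSO and 9.80, 9.92 and 9.18 with the inhibitor. Both genes went from the lower part of the array's range to its upper part. They were named among the largest rises without overlap, so the gap between their groups follows from that choice. CASP1, the protease that such inflammasomes activate, rose 8.84-fold and the endosomal RNA receptor TLR7 10.2-fold. The members that fell were the kinase IKBKE (-0.79), the cyclic dinucleotide synthase CGAS (-1.29), its receptor STING1 (-0.35) and DDX41 (-0.27), so the RNA sensor and the cytosolic DNA synthase differed in opposite directions.

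Of 30 interferon signalling genes 16 rose and none fell. The median of this list was 0.38. IFNLR1, the receptor chain for lambda interferons, rose by 2.13 ± 0.24 with its brightest probe set. Its other set, with a DMSO mean of 6.13, was at 0.03 (adjusted p = 0.83). The transcription factors IRF1 and IRF7 rose by 1.83 ± 0.18 and 1.89 ± 0.30. IRF7 had read 7.67, 8.16 and 8.45 in DMSO and read 9.97, 10.04 and 9.93 with the inhibitor. SOCS1, a feedback inhibitor of cytokine receptors, rose by 1.95 ± 0.21. The interferon beta gene IFNB1, named after its values were seen, read a mean of 3.94 in DMSO and 5.22 with the inhibitor, a rise of 1.27 ± 0.28 (adjusted p = 6.5e-04).

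**Figure D3:**
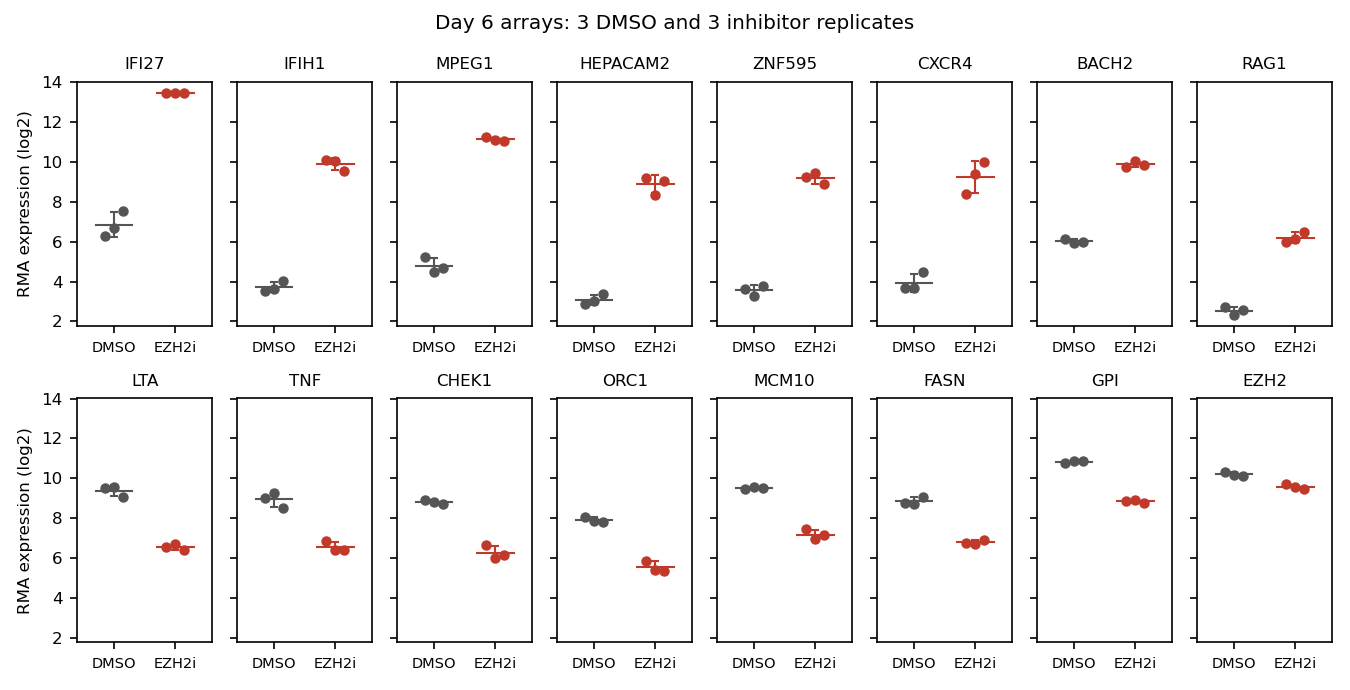
Points are the RMA values (y axis, log2) of the 3 DMSO and the 3 inhibitor (EZH2i) arrays of day 6 for 16 genes, with the mean as a line and the SD as a bar. The 3 inhibitor arrays lie above (top row) or below (bottom row) the 3 DMSO arrays. Most of these genes were named from calls without overlap, so for them this separation follows from the choice. The means are 6.85 and 13.46 for IFI27 and 10.21 and 9.57 for EZH2.

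Antigen presentation genes rose in both classes. MHC class I molecules show peptides from inside the cell, and 15 of 19 measured genes of that pathway rose and 3 fell (median 0.66). HLA-E read 10.89, 10.92 and 10.80 in DMSO and 13.04, 13.01 and 12.88 with the inhibitor, a 4.30-fold rise. HLA-B rose by 1.61 ± 0.12, HLA-F by 1.84 ± 0.17 and the peptide transporter TAP1, named after its values were seen, by 1.25 ± 0.09. The 3 that fell, CALR, CANX and PDIA3, are general folding factors of the endoplasmic reticulum, at -0.36, -0.62 and -0.31. The ISRE letters are in 6 of 17 class I promoters (35.3%). HLA genes are close in sequence, and a probe set of 1 can pick up transcripts of another.

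MHC class II molecules show peptides taken up from outside, and are a mark of B cells. Of 18 measured genes 14 rose and 1 fell, with a median of 0.72. HLA-DOA and HLA-DOB, the chains of a molecule that modulates peptide loading in B cells, rose by 1.49 ± 0.10 and 1.89 ± 0.18. For HLA-DOB this rests on a probe set of the type that may cross-hybridise. Without such sets the gene was at 0.16 (adjusted p = 0.42), as read from a dim set with a DMSO mean of 4.49. CTSS, the protease that clears the class II groove, rose by 1.18 ± 0.17. CIITA, the master regulator of class II transcription, was at 0.26 ± 0.14 (adjusted p = 0.13). None of the 14 class II promoters found holds the ISRE letters, while 11 (78.6%) hold CCAAT on either strand, which is in 33% of all promoters. Of 21 costimulatory and checkpoint genes 10 rose and 2 fell. CD86, the ligand of CD28 on T cells, read 6.14, 6.22 and 6.27 in DMSO and 8.77, 9.42 and 8.99 with the inhibitor, and CD48 and the activation marker CD83 rose 4.46-fold and 2.35-fold.

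Genes of the B cell programme rose more often than they fell. Of 26 germinal centre genes 16 rose and 2 fell (median 0.29), and of 48 B lineage and receptor genes 25 rose and 7 fell (median 0.34). BCL6, the factor that defines the germinal centre state, was at 0.13 ± 0.06 (adjusted p = 0.084), and PAX5 was at -0.11 ± 0.12 (adjusted p = 0.43). BACH2, a repressor that delays plasma cell fate, read 6.12, 5.93 and 6.00 in DMSO and 9.75, 10.04 and 9.85 with the inhibitor, a 14.5-fold rise. TCL1A, a co-activator of the kinase AKT, read 6.60, 6.27 and 7.48 in DMSO and 10.60, 11.51 and 11.54 with the inhibitor. CD38 rose 4.07-fold. The 2 germinal centre genes that fell were S1PR2 (-0.43), which confines cells to the germinal centre, and VPREB3 (-0.71).

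On the B cell surface, the inhibitory receptor FCRL3 read 7.90, 8.14 and 8.62 in DMSO and 11.43, 11.50 and 11.51 with the inhibitor, a 9.58-fold rise. CD72, a coreceptor that dampens signalling, and CD40, the receptor for T cell help, rose by 2.56 ± 0.24 and 1.80 ± 0.17. PRKCB, the kinase that links the B cell receptor to NF-kB, rose by 2.28 ± 0.15. CD79B rose by 1.10 ± 0.11, whereas CD79A was at 0.08 ± 0.10 (adjusted p = 0.50). The phosphatase PTPN6 fell by 1.00 and the lipid kinase subunit PIK3CD by 0.57, and the immunoglobulin heavy chain genes IGHM and IGHD each fell by 0.35.

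Of 24 measured plasma cell genes 7 rose (29.2%) and 4 fell (16.7%), against 18.5% and 26.9% of all genes, with a median of -0.17. The members named here stand for themselves and not for the list. JCHAIN, which joins immunoglobulin units, read 8.05, 7.77 and 8.48 in DMSO and 11.88, 11.10 and 11.50 with the inhibitor. The surface marker SDC1 (CD138) went the other way, from 7.43, 7.96 and 7.71 to 6.33, 6.86 and 6.84, and the secretory factor XBP1 fell by 0.79 ± 0.23. The repressor PRDM1, which drives plasma cell fate, rose by 0.26 ± 0.10 (adjusted p = 0.043). RAG1, the recombinase of antigen receptor genes in B cell precursors, read 2.71, 2.33 and 2.55 in DMSO and 6.00, 6.12 and 6.50 with the inhibitor, a 12.8-fold rise (3.67 ± 0.12, adjusted p = 2.6e-15); a second, dimmer probe set of RAG1 was at -0.05 (adjusted p = 0.72). Its neighbour and partner RAG2, named after its values were seen, rose by 1.04 ± 0.16.

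Genes of signals received and sent by the cells are described next. Among 15 chemokine and positioning receptors 5 rose and 4 fell. CXCR4, which places B cells in the dark zone of the germinal centre, read 3.68, 3.69 and 4.45 in DMSO and 8.36, 9.38 and 9.98 with the inhibitor. This was a 39.4-fold rise, a log2 difference of 5.30. Its other 2 probe sets also rose but by less, at log2 differences of 3.53 and 3.57. Of 22 TNF superfamily genes 4 rose (18.2%) and 6 fell (27.3%), shares close to those of all genes, so the members named here stand for themselves and not for the family. LTA, the lymphotoxin alpha gene, read 9.52, 9.56 and 9.06 in DMSO and 6.53, 6.70 and 6.41 with the inhibitor, and at -2.83 ± 0.22 had the largest fall of all genes (7.13-fold, adjusted p = 7.6e-10). TNF, its neighbour in the MHC region, read 9.02, 9.28 and 8.53 in DMSO and 6.84, 6.39 and 6.40 with the inhibitor.

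The death receptor TNFRSF21 read 3.96, 3.91 and 4.03 in DMSO and 8.40, 8.61 and 8.78 with the inhibitor, a 24.8-fold rise. TNFSF8, the CD30 ligand, read 5.51, 5.45 and 5.19 in DMSO and 9.52, 9.37 and 9.26 with the inhibitor, and the death ligand TNFSF10 (TRAIL) rose 13.1-fold. Of 21 NF-kB subunits and feedback genes 10 rose and 4 fell; the subunit REL rose by 1.06 ± 0.13 and CYLD, a deubiquitinase that restrains the pathway, by 1.61 ± 0.10.

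In the TGF-beta family, which restrains B cell growth, 12 of 26 genes rose and 2 fell. ID2, an inhibitor of helix-loop-helix factors, read 5.75, 5.87 and 6.15 in DMSO and 9.38, 10.68 and 10.68 with the inhibitor, so that inhibitor replicate 1 stood below the other two. The receptor BMPR2 rose by 2.93 ± 0.14, with 4 of its other 5 probe sets also higher and 1 lower at -0.27. The signal carrier SMAD1 read 3.57, 3.60 and 3.84 in DMSO and 5.58, 6.32 and 6.93 with the inhibitor; of its other probe sets 1 stood at 3.15 and another, near the floor, at -0.02. Of 33 MAPK feedback and immediate early genes 10 rose and 14 fell. The ERK pathway inhibitors SPRED2 and DUSP6 rose by 2.54 ± 0.12 and 1.69 ± 0.14, and ZFP36L2, which promotes mRNA decay, fell by 1.75 ± 0.09.

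Genes with low signal in DMSO rose strongly outside any of these pathways. MPEG1, a pore-forming protein of phagocytes that B cells can also express, read 5.22, 4.46 and 4.68 in DMSO and 11.22, 11.09 and 11.05 with the inhibitor, an 80.8-fold rise. The adhesion molecule HEPACAM2 read 2.88, 3.00 and 3.37 in DMSO and 9.21, 8.36 and 9.04 with the inhibitor. RIN2, an exchange factor for Rab5, read 3.52, 3.29 and 3.17 in DMSO and 9.37, 8.70 and 8.40 with the inhibitor. These genes were named among the largest rises without overlap, so the gap between their groups follows from that choice. TMEM100, a membrane protein of vessels, P4HA2, a collagen prolyl hydroxylase, and ABAT, which breaks down the transmitter GABA, rose 40.8-fold, 33.4-fold and 24.3-fold. HEPACAM2 lies beside SAMD9 and SAMD9L, which rose by 1.39 and 3.01, and TMEM100 beside MMD and PCTP, which rose by 1.03 and 2.20.

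Among the 24 myeloid markers, MPEG1, LYZ, CD1C and MS4A7 rose (16.7%) and 6 fell (25%). These shares lie near the 18.5% and 26.9% of all genes, so the members named stand for themselves. LYZ (lysozyme) read 3.83, 3.47 and 3.77 in DMSO and 6.34, 5.73 and 6.54 with the inhibitor. The defining myeloid markers CD14 and CSF1R fell by 0.42 and 0.23, and ELANE by 0.25. The list is dim, with a median DMSO level of 3.90, and the median of all genes was -0.11. Of 24 T and NK cell markers 2 rose (8.33%) and 6 fell (25%), among the latter CD247 by 1.25 ± 0.20 and CD3D by 0.58 ± 0.11.

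Histone genes of the replication type form clusters, and their transcripts usually lack a poly(A) tail. Of 35 measured 14 rose and 5 fell (median 0.15). H2AC6 read 3.71, 4.09 and 4.21 in DMSO and 9.21, 10.31 and 10.35 with the inhibitor, a 61.9-fold rise. H2BC5, H4C8 and H2BC21 rose 9.16-fold, 6.52-fold and 6.16-fold. For H2AC6, H2BC5 and H4C8 inhibitor replicate 1 was the lowest of the 3 inhibitor arrays, and over the list the median difference from the DMSO mean was -0.03 in replicate 1 and 0.24 and 0.20 in replicates 2 and 3. Histone genes are close in sequence, and their probe sets may cross-hybridise.

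Developmental regulators, the classical targets of Polycomb in embryonic cells, were counted in a pair of lists. Of 77 developmental transcription factors 7 rose (9.09%) and 25 fell (32.5%), with a median of -0.17. Of 28 HOX genes 5 rose (17.9%) and 6 fell (21.4%), with a median of -0.20; these shares lie near the 18.5% and 26.9% of all genes. Most have little signal here, with 18 and 6 of them above a DMSO mean of 6. HOXB3 read 4.88, 4.93 and 5.30 in DMSO and 7.34, 7.53 and 7.36 with the inhibitor. Its other probe set, with a DMSO mean of 5.53, did not rise, at -0.15 (adjusted p = 0.094). The HOX cofactor MEIS1 rose 5.27-fold, PBX3 3.20-fold and SOX9 4.77-fold, while the ERK-responsive factor ETV5 fell 3.01-fold. Of 466 numbered zinc finger genes 135 (29.0%) rose and 86 (18.5%) fell. ZNF595 had the largest difference among them, reading 3.63, 3.29 and 3.78 in DMSO and 9.26, 9.43 and 8.87 with the inhibitor; a second, dimmer probe set was at 0.09 (adjusted p = 0.50). Of 33 cancer-testis and germline genes 2 rose and 2 fell.

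The replication machinery fell as a whole. All 42 measured DNA replication genes fell, against 26.9% of all genes, with a median of -1.35, and in all 42 the inhibitor arrays lay below the DMSO arrays. In bulk RNA, fewer cycling cells and less of these transcripts per cell cannot be told apart. ORC1, which marks origins, read 8.06, 7.85 and 7.83 in DMSO and 5.88, 5.39 and 5.33 with the inhibitor, a 5.20-fold fall. MCM10, which helps to fire the helicase, read 9.47, 9.57 and 9.50 in DMSO and 7.44, 6.95 and 7.15 with the inhibitor. CDC45, a part of the helicase, fell 4.62-fold, the loading factor CDC6 4.11-fold and the helicase subunit MCM4 4.06-fold. CHEK1, the kinase that guards stalled forks, read 8.92, 8.81 and 8.69 in DMSO and 6.68, 5.99 and 6.14 with the inhibitor, a 5.80-fold fall. Inhibitor replicate 1 was the highest of the 3 inhibitor arrays in 35 of the 42 genes, with a median difference of -1.19 against -1.51 and -1.39.

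Genes of chromosome segregation fell to nearly the same extent. All 50 mitotic genes fell, with a median of -1.19 and no overlap between the groups. SPC25, a kinetochore subunit, read 9.66, 9.77 and 9.72 in DMSO and 8.09, 7.67 and 7.87 with the inhibitor. Cyclin A2 (CCNA2) fell by 1.66 ± 0.16, the centromere protein CENPN by 1.75 ± 0.10 and the spindle protein ASPM by 1.59 ± 0.17. Replicate 1 again had the highest inhibitor value in 40 of the 50 genes. Of 21 G1 cyclins, kinases and E2F factors 15 fell and none rose. CDC25A, a phosphatase that opens S phase, fell 3.88-fold from 9.51, 9.60 and 9.46 to 7.58, 7.55 and 7.57, and the cell cycle factors MYBL2, E2F2 and FOXM1 fell 3.41-fold, 2.43-fold and 2.34-fold.

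The CDK inhibitors, which Polycomb silences in many cells, did not follow as a group. Of 12 CDK inhibitors and retinoblastoma family members 3 rose and 6 fell. CDKN1B (p27) rose by 0.75 ± 0.14 and RBL2 (p130), the pocket protein of resting cells, by 0.72 ± 0.08. CDKN2A, in contrast, fell by 0.73 ± 0.05, CDKN2B by 0.25 ± 0.10, and RBL1 (p107), which is expressed in cycling cells, by 0.89 ± 0.17. CDKN1A (p21) was at 0.15 ± 0.16 (adjusted p = 0.46).

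The E2F site and the cell cycle homology region (CHR) are the promoter elements through which pocket proteins repress genes of DNA replication and of mitosis. Matches to their letters are shown for the members with the largest falls that hold such matches. The windows are the 250 bases before the RefSeq start (GRCh38.p14, 5′ to 3′ along the gene). Capitals mark TTTGGCGC or TTTCCCGC for GINS2 and MCM6 and TTTGAA for SPC25 and ASPM, on either strand. GINS2, a helicase subunit that fell by 1.85 ± 0.09, lies at chr16:85688955-85689204 (minus strand), MCM6, another, which fell by 1.82 ± 0.11, at chr2:135876444-135876693 (minus strand), SPC25 at chr2:168890431-168890680 (minus strand) and ASPM at chr1:197146670-197146919 (minus strand).
GINS2: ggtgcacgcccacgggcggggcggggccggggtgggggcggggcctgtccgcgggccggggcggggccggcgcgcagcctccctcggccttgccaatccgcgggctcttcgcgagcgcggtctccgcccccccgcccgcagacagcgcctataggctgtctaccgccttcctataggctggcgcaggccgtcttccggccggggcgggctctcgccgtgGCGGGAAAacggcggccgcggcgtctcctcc
MCM6: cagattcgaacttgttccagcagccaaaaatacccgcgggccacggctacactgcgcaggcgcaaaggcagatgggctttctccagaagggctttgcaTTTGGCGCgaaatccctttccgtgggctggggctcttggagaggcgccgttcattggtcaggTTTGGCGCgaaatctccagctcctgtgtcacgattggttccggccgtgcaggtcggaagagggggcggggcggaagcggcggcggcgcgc
SPC25: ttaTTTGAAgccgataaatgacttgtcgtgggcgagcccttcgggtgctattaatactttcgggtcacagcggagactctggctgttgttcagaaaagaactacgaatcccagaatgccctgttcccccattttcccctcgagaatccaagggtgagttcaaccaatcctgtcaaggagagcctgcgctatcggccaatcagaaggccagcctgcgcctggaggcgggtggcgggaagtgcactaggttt
ASPM: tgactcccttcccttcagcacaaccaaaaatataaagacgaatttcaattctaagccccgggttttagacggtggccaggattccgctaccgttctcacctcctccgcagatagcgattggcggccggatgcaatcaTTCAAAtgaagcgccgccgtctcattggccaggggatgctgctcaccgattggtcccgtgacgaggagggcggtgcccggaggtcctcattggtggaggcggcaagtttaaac
Of the 36 replication promoters matched 11 (30.6%) hold an E2F form, against 1.96% of all promoters, and 1 (2.78%) the CHR letters. In the mitotic list the shares are reversed, with the CHR letters in 23 of 42 promoters (54.8%, against 13.6% of all) and an E2F form in 2 (4.76%). CCAAT, which often accompanies the CHR, is in 34 of the 42 (81%). The ISRE letters are in none of the replication or mitotic promoters matched. Over all genes, an E2F form is in 3.71% of the promoters of those that fell, 2.2% of those that rose and 2.05% of those not called. For the CHR letters these shares are 9.92%, 8.77% and 11.6%. The matches are of letters only and do not show that a factor binds, and that of SPC25 lies 247 bases before the start.

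**Figure D4:**
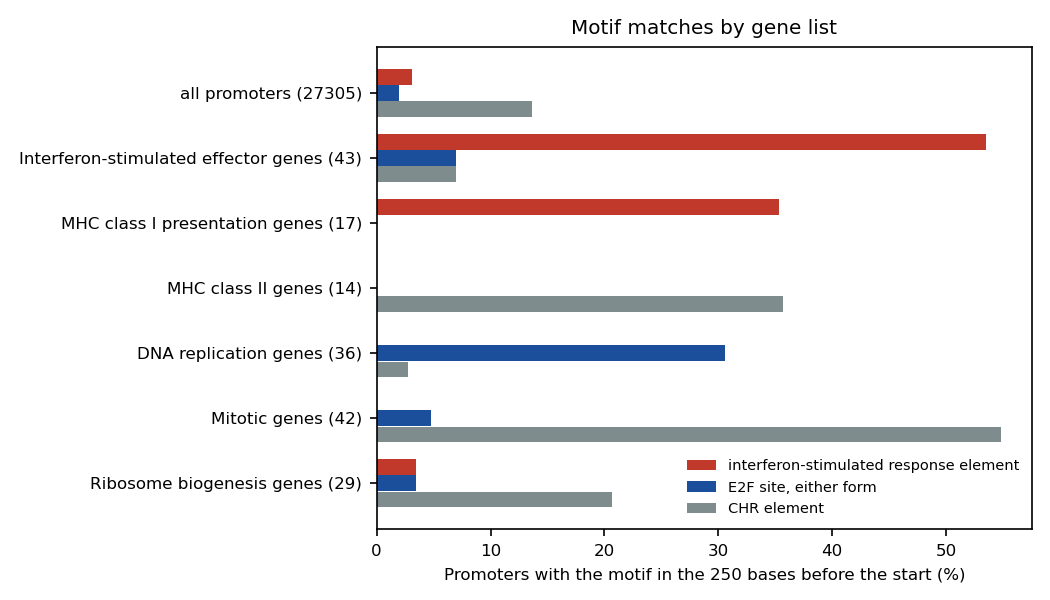
Bars give the percentage of promoters (x axis) with a match in the 250 bases before the start, for all promoters and for 6 gene lists (y axis, number of promoters in brackets). The ISRE letters (red) are in 53.5% of the interferon-stimulated effector promoters, an E2F form (blue) in 30.6% of the DNA replication promoters and the CHR letters (grey) in 54.8% of the mitotic promoters.

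Growth and biosynthesis fell with the cell cycle. MYC, the factor that drives ribosome and metabolic genes, read 12.14, 11.98 and 12.10 in DMSO and 11.66, 11.18 and 11.20 with the inhibitor, a fall of 0.73 ± 0.12. Its antagonist MXI1 rose by 1.31 ± 0.14. Of 11 measured genes of the MYC network, these included, 3 rose (27.3%) and 3 fell (27.3%), with a median of -0.05. The network thus did not fall as a group, and what part MYC had in the falls below was not tested. Of 34 ribosome biogenesis genes 33 fell and none rose, with a median of -0.74. Fibrillarin (FBL), the nucleolar methyltransferase, read 12.02 in each of the 3 DMSO arrays and 11.01, 10.79 and 10.82 with the inhibitor. LYAR and TSR1, factors of ribosome assembly, fell by 1.32 ± 0.08 and 1.26 ± 0.06. Of 60 cytosolic ribosomal protein genes 11 rose and 6 fell, with a median of 0.02.

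Mitochondrial genes were counted in a pair of lists. Of 75 mitochondrial ribosomal protein genes 64 fell and 1 rose (median -0.61). When probe sets that may cross-hybridise are left out, fewer genes are tested and 31 fell. MRPL4 and MRPS34 each fell by 1.04 ± 0.08. Of 78 oxidative phosphorylation genes 40 fell (51.3%) and 4 rose (5.13%), against 26.9% and 18.5% of all genes, and the median was -0.17. CYC1, a cytochrome of complex III, fell by 0.86 ± 0.09 and NDUFS1, a core subunit of complex I, by 0.84 ± 0.08.

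Enzymes that supply building blocks fell as well. Of 26 nucleotide synthesis genes 22 fell and none rose (median -0.83), among them GMPS, the last step to GMP, by 1.63 ± 0.15, and CAD, the first steps to pyrimidines, by 1.40 ± 0.09. Of 34 glycolysis and hypoxia genes 24 fell and 2 rose (median -0.57). GPI, the isomerase at the head of glycolysis, read 10.76, 10.86 and 10.85 in DMSO and 8.88, 8.89 and 8.74 with the inhibitor, a 3.95-fold fall. Pyruvate kinase (PKM) fell by 1.30 ± 0.09, and TKT and PGD of the pentose phosphate path by 1.24 ± 0.07 and 1.33 ± 0.22.

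Lipid synthesis genes fell more often than they rose. Of 27 cholesterol and fatty acid synthesis genes 18 fell and 1 rose with a median of -0.65. The falls numbered 11 without the probe sets that may cross-hybridise, where fewer genes are tested. Fatty acid synthase (FASN) read 8.79, 8.71 and 9.09 in DMSO and 6.78, 6.73 and 6.91 with the inhibitor. The elongase ELOVL6 fell by 1.57 ± 0.11, FDPS of the sterol path by 1.43 ± 0.12, and SREBF1, the factor that drives lipid synthesis, by 1.16 ± 0.11, the last named after its values were seen. Of 11 sterol export genes 3 rose and 3 fell, with a median of -0.19. Among those that rose, ABCA1, the pump that exports cholesterol, went from 6.46, 5.36 and 5.35 to 8.78, 8.46 and 8.78, and NPC2 and LIPA, which free cholesterol in lysosomes, rose by 2.09 ± 0.14 and 1.51 ± 0.12.

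Protein care genes fell in part. Of 21 chaperone genes 16 fell and 2 rose (median -0.65), and of 30 proteasome genes 20 fell and none rose (median -0.35). The chaperonin HSPE1 fell by 1.00 ± 0.07 and the HSP90 partner STIP1 by 1.20 ± 0.21. Of 29 amino acid stress genes, which respond to the factor ATF4, 14 fell and none rose. Asparagine synthetase (ASNS) read 12.15, 11.65 and 11.47 in DMSO and 10.58, 10.65 and 10.52 with the inhibitor. Without probe sets that may cross-hybridise ASNS was at -0.47 (adjusted p = 0.10), as read from a dim set with a DMSO mean of 3.70. Of 30 genes of folding and secretion in the endoplasmic reticulum 6 rose and 12 fell, with the chaperone MANF lower by 1.15 ± 0.08 and the stress sensors ERN1 and EIF2AK3 higher by 1.30 ± 0.12 and 0.89 ± 0.08.

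Genes of resting cells and of lysosomes were higher. Of 24 FOXO and quiescence genes 15 rose and 2 fell (median 0.59). YPEL5, of a family tied to growth arrest, read 6.88, 6.79 and 7.17 in DMSO and 10.59, 10.70 and 10.61 with the inhibitor. SESN3, a brake on the growth kinase mTORC1, rose 10.2-fold, and FOXO1, named after its values were seen, 2.85-fold (1.51 ± 0.06). BTG1 rose by 2.05 ± 0.15, and a second bright probe set of the same type was at 2.02. Without probe sets that may cross-hybridise BTG1 was at 0.03 (adjusted p = 0.89). That value comes from a dim set with a DMSO mean of 3.35, which says little about the rise. Of 28 lysosome and autophagy genes 14 rose and 5 fell; the cathepsin CTSO read 4.92, 4.61 and 5.14 in DMSO and 9.42, 9.16 and 8.91 with the inhibitor, and PSAP, a lysosomal activator of lipid breakdown, rose by 1.87 ± 0.09.

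Cell death and stress genes were counted in separate lists, against 18.5% of all genes higher and 26.9% lower. Of 17 BCL2 family genes 7 rose (41.2%) and 1 fell (5.88%). Of 24 p53 target genes 7 rose (29.2%) and 8 fell (33.3%). GADD45A, a stress sensor, rose from a mean of 8.08 to 12.12 (4.03 ± 0.22), and TP53INP1 rose 13.1-fold. The death promoter PMAIP1 (NOXA) read 10.31, 9.80 and 9.29 in DMSO and 11.81, 11.98 and 12.20 with the inhibitor. The survival gene BCL2A1 rose by 1.71 ± 0.26. MCL1 rose by 1.00 ± 0.08 with its brightest probe set, while the average over its 6 sets was 0.19 (adjusted p = 0.089).

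Whether these effects differed from those at day 3 was tested as the difference between the inhibitor effects of the days, which share no arrays. The calls at day 3 numbered 3221 (16.3%), with 1709 (8.64%) higher and 1512 (7.65%) lower, with differences of at least 2-fold in 377 (1.91%) and 21 (0.106%). The effect at day 6 was above that at day 3 for 1182 genes (5.98%) and below it for 1292 (6.53%). With the replicate number as a block these counts were 1783 and 1932. Against day 1 they were 2430 (12.3%) and 2847 (14.4%). From day 3 to day 6 limma called 4090 genes in the inhibitor arm (20.7%) and 0 in the DMSO arm, where 882 genes had an unadjusted p under 0.05 and the smallest adjusted p was 0.712. From day 1 to day 6, 57 genes (0.288%) were called in the DMSO arm.

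Among the lists examined, the mitotic and DNA replication lists had the largest shares of members that differed between the days. Of the 42 replication genes 39 were further down at day 6 than at day 3, with list medians of -0.42 and -1.35, and of the 50 mitotic genes 47, with -0.21 and -1.19. Of 27 cholesterol and fatty acid synthesis genes 15 were further down, with medians of -0.08 and -0.65. In this list the median change was at -0.47 for day 6 minus day 3 in the inhibitor arm and at 0.10 in the DMSO arm, and at 0.51 for day 6 minus day 1 in the DMSO arm, so the control level of the list moved over the days too. Larger shares were further down among nucleotide synthesis (18 of 26), ribosome biogenesis (20 of 34) and chaperone genes (12 of 21); G1 genes followed with 11 of 21 and mitochondrial ribosomal protein genes with 38 of 75. Among rising groups, 10 of 18 MHC class II genes and 8 of 19 class I genes had a higher effect at day 6, and 8 of the 53 interferon-stimulated effector genes, whose median went from 1.48 to 1.95. For IFI27 the effects were 3.91 and 6.61, a difference of 2.71 ± 0.96 that was not called (adjusted p = 0.070), and for IFIH1 they were 4.47 and 6.17 (adjusted p = 0.0076). Of the 29 amino acid stress genes 0 were called different between the days, with medians of -0.81 at day 3 and -0.63 at day 6.

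**Figure D5:**
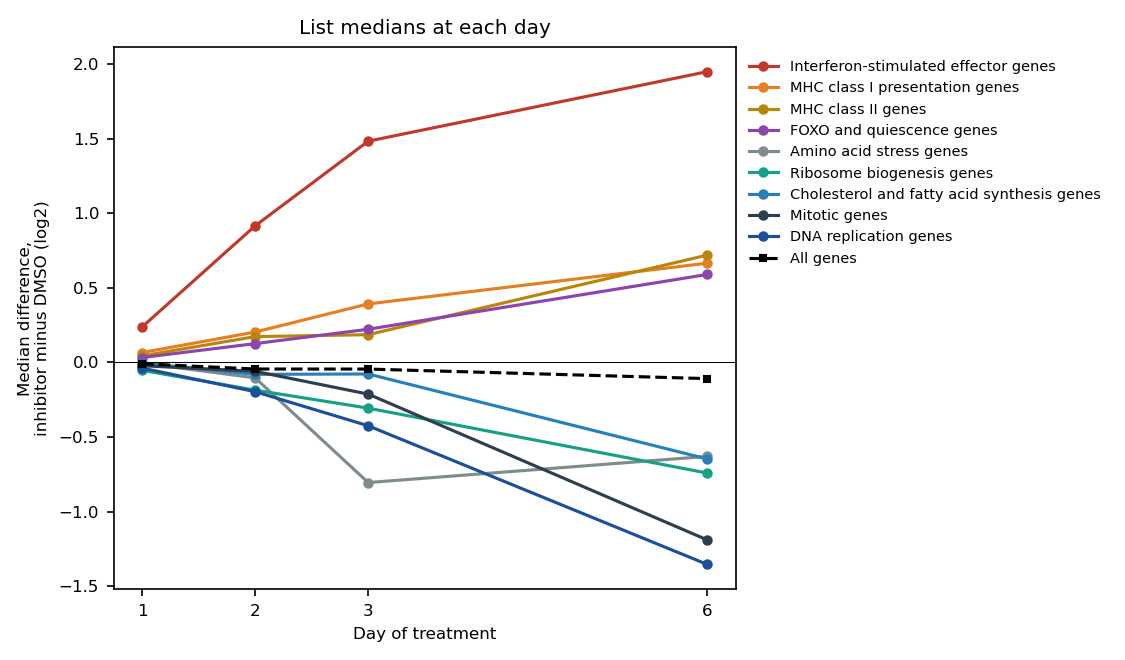
Lines give the median difference between inhibitor and DMSO (y axis, log2) over the members of 9 gene lists and over all genes (dashed) at days 1, 2, 3 and 6 (x axis). The interferon-stimulated effector genes had most of their day 6 value of 1.95 at day 3, with 1.48, whereas the mitotic genes went from -0.21 to -1.19.

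Several genes had most of their effect after day 3. RAG1 was at 0.29 at day 3 (adjusted p = 0.12) and 3.67 at day 6, a difference of 3.39 ± 0.17 (adjusted p = 3.4e-11). TMEM71, a membrane protein, went from 0.42 to 3.54, TNFRSF21 from 1.08 to 4.63, ZNF595 from 1.37 to 5.62 and MPEG1 from 2.84 to 6.34. In these 5 genes the inhibitor arm changed between days 3 and 6 by 3.06 to 4.06 and the DMSO arm by -0.19 to -0.01. PMAIP1 stood at -0.73 at day 3 (adjusted p = 0.22) and at 2.20 at day 6; part of that difference of 2.93 ± 0.53 lay in the DMSO arm, which stood 0.60 lower at day 6 (adjusted p = 1). Among falls, CHEK1 went from -0.84 to -2.54, MCM10 from -0.72 to -2.33, FASN from -0.53 to -2.05 and the collagen gene COL9A3 from -0.05 to -1.71. The DMSO level of FASN stood 0.36 higher at day 6 than at day 3 (adjusted p = 1). EZH2 itself was at -0.29 at day 3 (adjusted p = 0.091), and its difference between the days was not called (-0.35 ± 0.16, adjusted p = 0.19).

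Other probe sets give a second reading of the same RNA. Of the genes that rose, 2345 had at least 2 probe sets; all the others were called in the same direction in 705, at least 1 was in 1431, and 1 or more was called the opposite way in 312. For 2885 genes that fell these counts were 880, 1594 and 238. Disagreements touch named genes: TRAP1, a mitochondrial chaperone, fell by 1.46 ± 0.07 with 1 probe set and was higher by 0.40 with a dim one, MRPL39 fell by 1.04 ± 0.07 and stood at 0.66 with its other set, and TRIM14 rose by 1.39 ± 0.09 and stood at -0.50 with 1 of its 5 sets.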

How the data were processed

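Total RNA from 24 samples of KARPAS-422 was hybridised to Affymetrix U133 Plus 2 arrays, 3 in each of 8 groups. The deposited values, which the submitters' processing notes say the authors normalized with RMA under R 2.10.1, cover 54613 probe sets. They were read as log2, the scale RMA gives and the range of the deposited values fits; the base is not given in the sources used here. Array medians ran from 4.958 to 5.032, and the number of arrays limits the precision.

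A single symbol was given for 41091 probe sets in the platform's annotation. Those with several (1801) or none (11721) were left out of the gene tests, and each of 19775 genes was read from the set whose mean over all 24 arrays was highest. Differences were fitted with limma 3.58.1 (R 4.3.3, statmod 1.5.0, the package data.table in version 1.17.8) with a coefficient for each of the 8 groups, eBayes, and Benjamini-Hochberg adjustment over all genes at 0.05. The procedure was tested on simulated data with independent noise and few changed genes. These data differ on both points, so that test checks the code and not the calls. Named genes are EZH2 and the PRC2 core, the 15 highest and 15 lowest differences among calls without overlap, in each list up to 4 calls of the largest size, and the 8 highest and 8 lowest for day 6 minus day 3; others are described as chosen after their values were seen, or serve as markers or exceptions of a list. The comparison and the gene lists were chosen with earlier results of these data known. List counts are to be read against the shares of all genes called, 18.5% higher and 26.9% lower.

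Equal replicate numbers correlated at day 6 (0.210 to 0.323 after removal of group means), which was taken as a sign that the numbers pair the samples there. The labels do not state pairing, and arrays of unequal numbers were not compared. The main fit leaves the replicate number out, and the blocked fits are alternatives. At day 2 the lowest correlation of equal numbers was 0.0432. Promoters were read from RefSeq (GRCh38.p14). Alternatives were normalization, probe set choice, filters, blocks, threshold and leaving out each day 6 array.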

Additional observations from a re-analysis of the deposited data

Results flagged for a closer look

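The effect of the inhibitor differed between days by the test of the difference itself. Against day 3 it was higher at day 6 for 1182 genes and lower for 1292, and against day 1 for 2430 and 2847.

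Among the genes named by rule, the difference between the effects at days 6 and 3 was 4.26 for ZNF595, 3.55 for TNFRSF21, 3.50 for MPEG1, 3.39 for RAG1, 3.12 for TMEM71, 2.93 for PMAIP1, 2.74 for CXCR4 and 2.71 for TCL1A. In the other direction it was -1.70 for CHEK1, -1.66 for COL9A3, -1.66 for ORC1, -1.61 for MCM10, -1.53 for MCM4, -1.52 for FASN, -1.51 for the dynein gene DNAI1 and -1.45 for CDCA7.

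Probe sets without a single gene name, which the report does not use, also carried signal. Of 13522 such sets 1835 were higher (13.6%) and 1979 lower (14.6%) at day 6 in a fit over all 54613 probe sets, 487 and 92 of them by at least 2-fold.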

How the results depend on the processing

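Across 18 alternatives, 205 of the 229 named genes called at day 6 kept their direction and call in every alternative that measured them. Most of these genes were named for large differences in the same arrays, so this share does not describe the calls at large. EZH2 has no probe set outside the type that may cross-hybridise, so the alternative without such sets gives no value for it; leaving out 1 array at a time it ranged from -0.71 to -0.59. The counts of higher and lower genes ranged from 3321 to 3480 and from 4495 to 4951 without 1 array, and were 4017 and 5919 in the fit blocked by replicate; 3141 were lower after shifting the median gene to no change, an alternative chosen after seeing the data. Genes with a higher effect at day 6 than at day 3 numbered 1783 with the replicate block, 1903 with that block within each day and 615 at an adjusted p under 0.01, and those with a lower effect 2074 with the block within each day, 777 without probe sets that may cross-hybridise and 721 at 0.01; those below day 1 numbered 1896 at 0.01. Without the probe sets that may cross-hybridise, 31 mitochondrial ribosomal and 11 lipid synthesis genes were lower, with fewer genes tested. In that alternative 8 named genes changed sign: JARID2 (-0.30), SMAD1 (-0.016), MAX (-0.74), MRPL39 (0.66), MCL1 (-0.076), HEY2 (0.12), TRIM14 (-0.50) and EED (0.57). With probe sets averaged per gene MAX was at -0.025 and EED at 0.23. These 2 alternatives read other probe sets of the same genes; the cause of the disagreement was not tested. RMA gives no detection calls, so falls of dim genes are limited by the floor of the array.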

Other observations

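Members of adhesion, trafficking, ubiquitin ligase and carrier families were also counted at day 6, against 18.5% of all genes higher and 26.9% lower. Of 42 integrins and adhesion molecules 11 rose (26.2%) and 13 fell (31.0%). PECAM1, an adhesion molecule of leukocytes and vessels, read 5.03, 4.99 and 5.21 in DMSO and 9.29, 9.27 and 9.28 with the inhibitor, an 18.4-fold rise with no overlap between the groups. The integrin subunit ITGAV rose by 1.75 ± 0.11 and the leukocyte ligand ICAM2 by 1.59 ± 0.16. Of 57 RAB GTPases, which direct vesicles, 11 rose (19.3%) and 10 fell (17.5%); RAB8B rose by 1.85 ± 0.14, and RAB33A fell by 1.87 ± 0.14 and RAB38 by 1.26 ± 0.16.

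Among 34 KLHL genes, adaptors of ubiquitin ligases, 14 rose (41.2%) and 7 fell (20.6%). KLHL14 read 6.94, 6.75 and 6.34 in DMSO and 10.30, 10.40 and 10.21 with the inhibitor, a 12.3-fold rise, while KLHL23 fell by 1.39 ± 0.24. Of 56 TRIM genes 16 rose (28.6%) and 13 fell (23.2%), among them the antiviral TRIM22, which rose by 1.51 ± 0.11. Of 45 SLC25 genes, carriers of the inner mitochondrial membrane, 10 rose (22.2%) and 15 fell (33.3%); SLC25A43 read 4.54, 4.73 and 4.99 in DMSO and 7.40, 7.09 and 7.12 with the inhibitor, and SLC25A15 fell by 1.12 ± 0.07. In the Notch pathway 2 of 19 genes rose and 6 fell, and the ligand DLL1 rose 2.83-fold, with inhibitor values spread from 5.04 to 6.34. The other probe set of DLL1, with a DMSO mean of 4.10, was at -0.14 (adjusted p = 0.41).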
